A study of Papio anubis with 25 samples.

Results

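Mucin-type O-glycans are built on secreted and membrane proteins by a relay of Golgi enzymes, and 10 genes of that relay were listed by symbol: ST6GALNAC1, ST6GALNAC2, GALNT3, GALNT4, GALNT6, GALNT7, GALNT12, C1GALT1, C1GALT1C1 and GCNT3. Of these, 9 were found among the 21287 genes of the deposited abundance table, and all 9 reached a mean of 1 TPM in at least 1 tissue, the minimum for testing. GCNT3 is not analysed here. TPM is a transcript's abundance per length, relative to the whole library, so levels of different genes can be set side by side. The values came from 3 salivary glands (parotid, submandibular and sublingual), pancreas and liver of 5 untreated olive baboons (Papio anubis), 1 flash-frozen library for each tissue of each animal and 25 in all. The series was designed to compare salivary glands with pancreas, and pancreas with liver, within the same animals. The animals were 4 females (baboons 1 to 4) and 1 male (baboon 5), of an age that was not given. The salivary glands were left glands, and the RNA came from thin tissue sections, so 1 library holds the cells of a small piece of the organ.

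The first sugar, N-acetylgalactosamine, is attached to serine or threonine by the polypeptide N-acetylgalactosaminyltransferases, the GALNT family, whose members prefer different peptides, and some of which act mainly on sites next to one already glycosylated. C1GALT1 then adds galactose to form the core 1 structure, and it folds only with the help of its chaperone C1GALT1C1, also known as Cosmc. ST6GALNAC enzymes add sialic acid to the N-acetylgalactosamine, and ST6GALNAC1 can cap that first sugar before it is extended, giving the sialyl-Tn structure. Dense O-glycans give salivary mucins their viscosity, and mucous cells are found in sublingual and submandibular glands while the parotid is mainly serous.

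GALNT6 was the leading GALNT of the pancreas, at 17.4 ± 2.70 TPM (SD, n = 5), and was lower in parotid and submandibular gland. In sublingual gland it was lower too, but its range overlapped the pancreas and the call held under 4 of 15 other settings of the test. GALNT12 was the most abundant GALNT gene in 8 of the 15 gland libraries. ST6GALNAC1 was found at 21.5 TPM or more in 4 of 5 submandibular libraries and stayed at or below 1.21 TPM in every parotid library, while ST6GALNAC2 reached its highest value, 73.4 TPM, in a parotid library. The core 1 enzyme C1GALT1 and its chaperone passed the test in no comparison over the 25 libraries.

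The gland libraries differed in the marker genes they held. In 4 of them (parotid of baboons 2 and 5, submandibular and sublingual of baboon 2) the summed level of 7 salivary epithelial markers was 7.44 to 18.6 TPM, against 91.0 to 555 TPM in the other 11. A sum over 4 general epithelial markers was 7.32 to 22.5 TPM in those 4 and 19.6 to 370 TPM in the other 11. Sublingual 4, the lowest of the other 11 by that sum, had a salivary sum of 339 TPM made up mostly of the duct keratins KRT7 (149 TPM) and KRT19 (149 TPM). Its acinar water channel AQP5 (3.78 TPM) and ELF5 (1.69 TPM) stood near the liver means of 3.20 and 1.64 TPM. So did SOX10, which is outside the list (1.58 TPM, against 1.24 TPM in liver). The rest of the list went the other way. EHF (28.7 TPM), ESRP1 (5.14 TPM) and SLC12A2 (1.91 TPM) stood above the liver means of 1.45, 0.544 and 0.754 TPM. Parotid 2 was at 21274 TPM for 5 adipocyte markers, parotid 5 at 829 TPM for 6 lymphocyte markers and sublingual 2 at 97316 TPM for 6 skeletal muscle markers. Submandibular 2 and submandibular 5 held 2775 and 6860 TPM of adipocyte markers. Sublingual 1 and 4 held 112686 and 49029.5 TPM of 6 stratified oral epithelium markers, against at most 739 TPM in any other gland library. Sums over 4 plasma cell markers ran from 30.1 to 9098 TPM over the glands. Pancreatic acinar markers (4 genes) summed to 54982 TPM or more in every pancreas library and hepatocyte markers (3 genes) to 37626 TPM or more in every liver library, so both labels matched. The same lists were not at 0 elsewhere, with 101 to 1656 TPM of pancreatic and 104 to 885 TPM of hepatocyte markers in gland libraries. In bulk tissue, fewer cells of a type and less RNA per cell cannot be told apart, and the part that these differences in content play in the results was not tested.

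**Figure D1:**
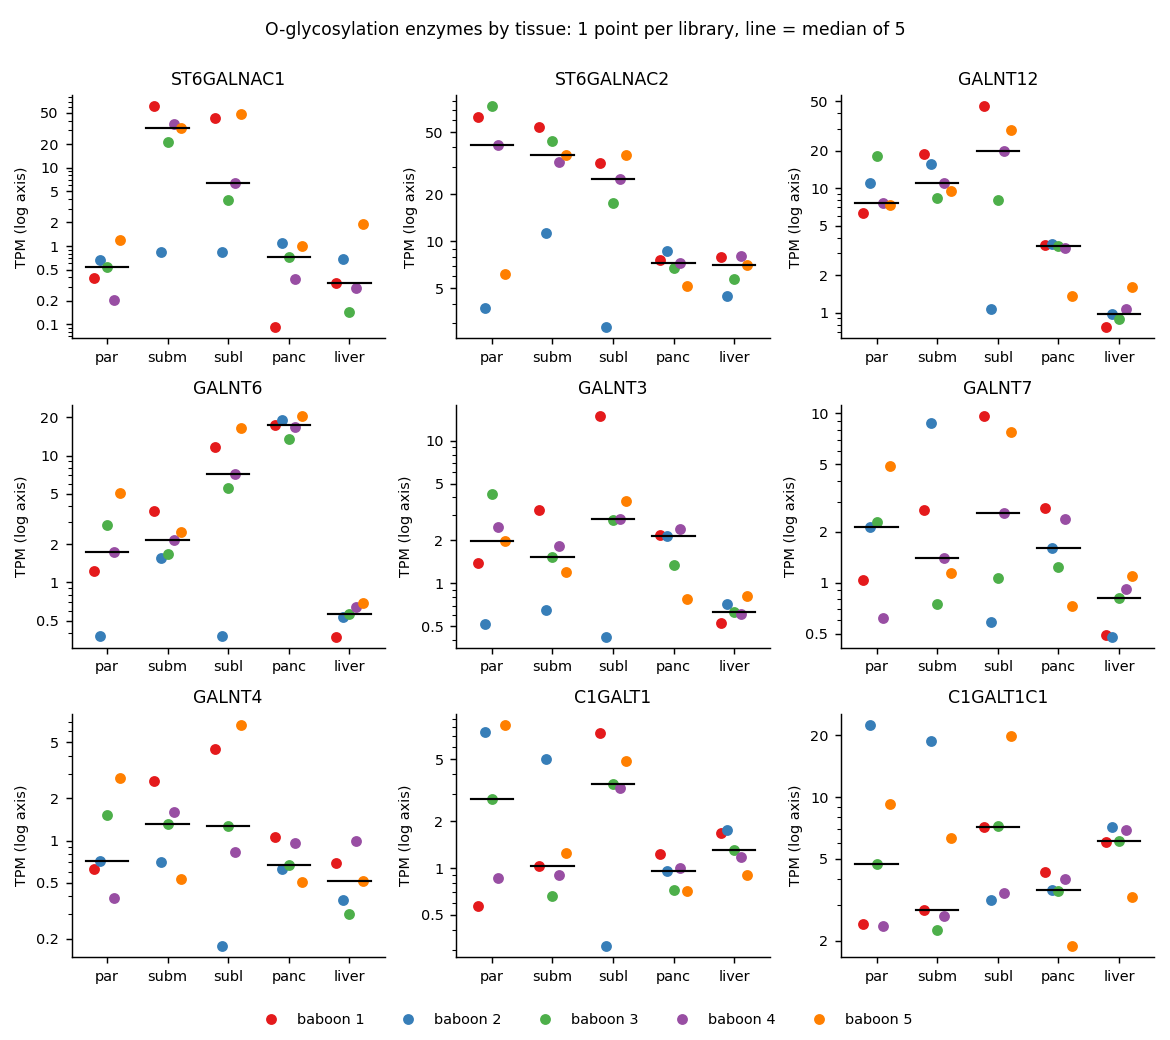
TPM of the 9 measured enzymes on log axes, 1 panel per gene, with 1 point per library coloured by baboon and a line at the median of 5. Pancreas and liver points lie close together for most genes while gland points spread widely, and baboon 2 is often the lowest gland point for ST6GALNAC1, ST6GALNAC2, GALNT3 and GALNT6 and among the highest for C1GALT1C1 in parotid and submandibular gland.

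Differences were tested with limma over all 14991 genes that passed the minimum, on log2(TPM + 1) and with the animal as a block. Calls required an adjusted p below 0.05 by the Benjamini-Hochberg method together with a log2 difference of 1 or more in either direction. For the sublingual gland against pancreas, 3 of the 9 enzymes were called (GALNT12 and ST6GALNAC1 higher, GALNT6 lower), where 9.47% of all genes were called (6.97% higher and 2.49% lower). In the submandibular gland 3 were called against pancreas (ST6GALNAC1 and ST6GALNAC2 higher, GALNT6 lower), with 4.08% of all genes called (1.27% higher and 2.81% lower). The parotid had 1, GALNT6, lower than in pancreas, with 3.82% of all genes called (1.41% higher and 2.4% lower). For the mean of the 3 glands, 4 were called against pancreas, 3 higher and 1 lower, where 6.44% of all genes were called (3.28% higher and 3.16% lower). Against liver 4 were called, all higher, where 18.2% of all genes were called (5% higher and 13.2% lower). Pancreas against liver had 1, GALNT6, higher in pancreas, where 17.5% of all genes were called (2.86% higher and 14.6% lower). Between glands limma called 0 enzymes, against 17 genes in all for sublingual against parotid (0.113%), 10 for sublingual against submandibular (0.0667%) and 0 for submandibular against parotid (0%). At an unadjusted p under 0.05, the enzymes numbered 2, 1 and 1 in those 3 comparisons, and all genes numbered 1368, 2109 and 254. The median log2 fold change of the 9 enzymes against pancreas was 0.81 in sublingual, 0.36 in submandibular and 0.23 in parotid gland, beside 0.63, 0.17 and 0.45 over all genes tested. The comparisons with pancreas share the same 5 pancreas libraries, so their results are not independent of each other.

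**Figure D2:**
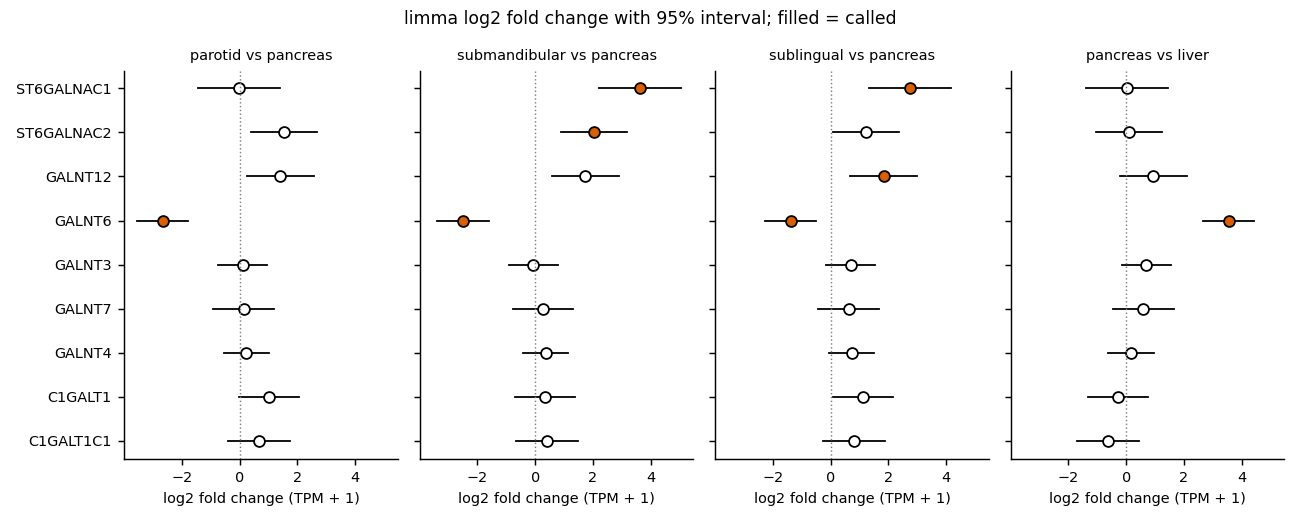
Log2 fold changes on the TPM + 1 scale for the 9 enzymes in 4 comparisons, with 95% confidence intervals from limma, where filled points passed the call and open points did not. GALNT6 is the filled point furthest to the left against pancreas in each gland and stands at 3.56 for pancreas against liver, and ST6GALNAC1 stands at 3.63 in submandibular gland and at -0.04 in parotid.

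Among the initiating enzymes, GALNT6 separated pancreas from every other tissue but the sublingual gland. GALNT6 is an initiating enzyme closely related to GALNT3. Its level in pancreas was 17.4, 19.0, 13.4, 16.7 and 20.6 TPM in baboons 1 to 5. Submandibular gland had 3.66, 1.55, 1.69, 2.17 and 2.49 TPM, and parotid had 1.22, 0.377, 2.83, 1.73 and 5.04 TPM. Both glands lay wholly below the pancreas range. Sublingual gland had 11.6, 0.378, 5.61, 7.21 and 16.4 TPM, overlapping the pancreas through baboon 5, whose 16.4 TPM exceeded the lowest pancreas value of 13.4 TPM. Liver was the lowest tissue by mean, at 0.559 ± 0.122 TPM (SD, n = 5). In the order of means, pancreas, sublingual, submandibular, parotid and liver, each tissue overlapped the next.

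GALNT6 was lower than in pancreas by a log2 fold change of -2.67 ± 0.43 (SE) in parotid (limma adjusted p = 0.000218) and of -2.50 ± 0.43 in submandibular gland (adjusted p = 0.000491), in 5 of 5 animals each. In sublingual gland the change was -1.39 ± 0.43 (adjusted p = 0.0437), also with the pancreas higher in 5 of 5 animals. Pancreas exceeded liver by 3.56 ± 0.43 (adjusted p = 7.41e-07), in 5 of 5 animals. The calls in parotid, submandibular gland and liver held under all 15 other settings tried, with adjusted p-values no higher than 0.0113. The sublingual call held under 4 of 15, and without the animal block its adjusted p was 0.0701. Without the 4 libraries low in epithelial markers, the sublingual difference was -0.79 (adjusted p = 0.0315, from 0.000433 to 0.147 over the settings), under the minimum fold change. The glands together were higher than liver by 1.37 ± 0.35 (adjusted p = 0.00614), which held under 14 of 15 settings. Sublingual gland was higher than parotid by 1.28 ± 0.43 in 5 of 5 animals without passing the test (adjusted p = 0.268). Without the 4 libraries that difference was 1.78 and was called (adjusted p = 0.00278, and up to 1.00 over the settings). The set, chosen after seeing the data, holds the lowest sublingual value and both the lowest and the highest parotid values.

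GALNT12 was higher in the glands than in pancreas and liver. It is an initiating enzyme known from the digestive tract. Its level in pancreas was 3.48, 3.55, 3.44, 3.28 and 1.36 TPM, and in liver 1.06 ± 0.320 TPM (SD, n = 5). Parotid had 6.30, 10.9, 18.0, 7.56 and 7.37 TPM and submandibular gland 18.6, 15.7, 8.29, 11.0 and 9.40 TPM, each wholly above the pancreas. Sublingual gland ran from 1.07 TPM in baboon 2, the library rich in muscle transcripts, through 7.98, 19.7 and 29.4 TPM in baboons 3, 4 and 5 to 45.3 TPM in baboon 1. It thus held both the lowest and the highest gland values. By mean the order was sublingual, submandibular, parotid, pancreas and liver, and of these neighbours only parotid and pancreas did not overlap.

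For the mean of the glands, GALNT12 exceeded liver by 2.60 ± 0.46 (limma adjusted p = 0.000141), in 5 of 5 animals and under all 15 settings. Over pancreas the glands' mean was higher by 1.66 ± 0.46 (adjusted p = 0.0279) in 5 of 5 animals, a call kept under 9 of 15 settings. Of the single glands, sublingual was called at 1.84 ± 0.56 (adjusted p = 0.0414), in 4 of 5 animals and under 6 of 15 settings. Submandibular gland at 1.74 ± 0.56 (adjusted p = 0.0980) and parotid at 1.40 ± 0.56 (adjusted p = 0.190) were not, although both were higher than pancreas in 5 of 5 animals. The sublingual call was lost when baboon 1, 3, 4 or 5 was left out, with log2 fold changes of 1.46, 2.05, 1.73 and 1.38, and it was 1.07 (adjusted p = 0.431) without the sublingual libraries of baboons 1 and 4, rich in stratified epithelium markers. Without the 4 libraries low in epithelial markers it was 2.56 (adjusted p = 0.000368, and up to 0.431 over the settings). That set was chosen after seeing the data and holds the lowest sublingual value.

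Shares within the family do not depend on how a library is scaled. Of the summed TPM of the 19 GALNT genes measured, GALNT6 made up 36.7%, 47.8%, 39.4%, 38.7% and 65.6% in the 5 pancreas libraries and led in all 5. Its share was 8.38% ± 4.62 in sublingual gland, 5.01% ± 2.42 in submandibular gland, 4.65% ± 2.54 in parotid and 2.77% ± 0.878 in liver (SD, n = 5 each), with no gland library above 12.6%. GALNT12 made up 28.4%, 6.79%, 31.1%, 28.2% and 9.02% in parotid, 36.9%, 10.7%, 29.2%, 32.0% and 16.9% in submandibular gland and 35.6%, 2.67%, 10.7%, 34.6% and 20.8% in sublingual gland. It led in 3 parotid, 3 submandibular and 2 sublingual libraries. The 4 libraries low in epithelial markers held the 4 lowest of the 15 gland values, from 2.67% to 10.67%, with sublingual 3 next at 10.73%. In liver the broadly expressed GALNT2 led in 3 libraries and GALNT11 in 2, and GALNT12 made up 5.22% ± 1.97.

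**Figure D3:**
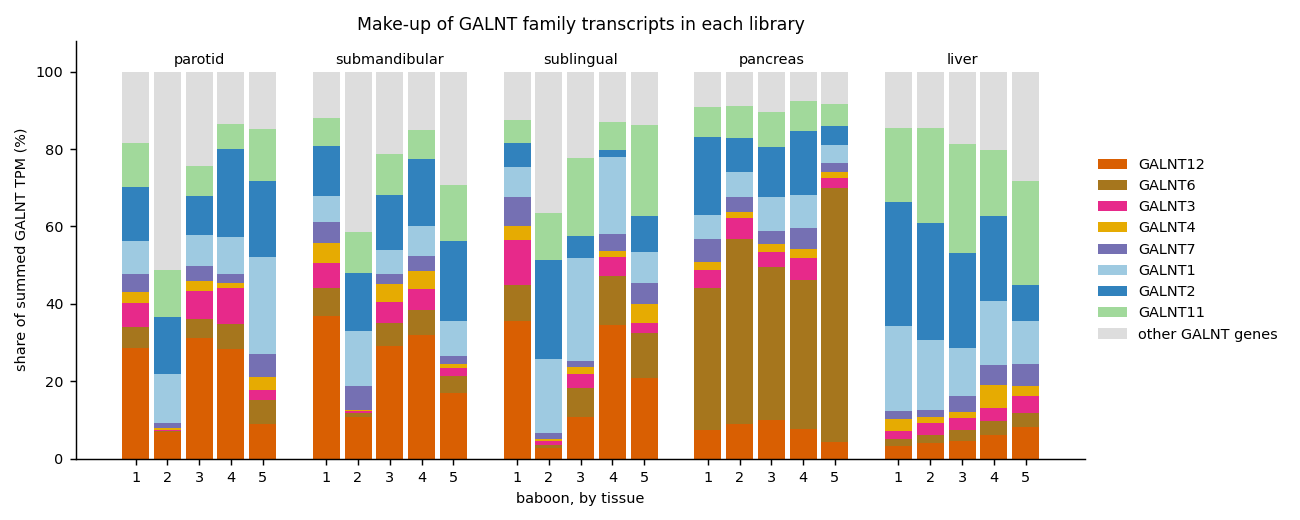
Share of each GALNT gene in the summed TPM of 19 family members (percent, from 0 to 100), 1 stacked bar per library, grouped by tissue and numbered by baboon. GALNT6 takes 36.7% to 65.6% of every pancreas bar, and GALNT12 takes 28.2% or more in 8 of the 15 gland bars.

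GALNT3, GALNT4 and GALNT7 had means of 4.95 TPM or less in all 5 tissues. GALNT3, which also protects the phosphate hormone FGF23 from cleavage, was at 1.77 ± 0.686 TPM in pancreas and 0.661 ± 0.111 TPM in liver (SD, n = 5 each). The sublingual level of GALNT3 was 14.9 TPM in baboon 1 and 0.423, 2.76, 2.81 and 3.80 TPM in baboons 2 to 5, so 1 library set the highest value. GALNT3 had means of 2.12 ± 1.39 TPM in parotid and 1.70 ± 0.986 TPM in submandibular gland. Against liver, the glands' mean differed by 0.94 ± 0.33 with limma (adjusted p = 0.0491), just under the minimum fold change. In sublingual gland against pancreas GALNT3 differed by 0.69 ± 0.41 (adjusted p = 0.236).

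GALNT7 and GALNT4 are follow-up enzymes that act on partly glycosylated peptides. GALNT7 was at 9.67, 0.583, 1.06, 2.56 and 7.77 TPM in sublingual gland and at 8.78 TPM in the submandibular library of baboon 2, against 0.744 to 2.69 TPM in the other 4 submandibular libraries. It was at 2.20 ± 1.67 TPM in parotid, 1.74 ± 0.827 TPM in pancreas and 0.758 ± 0.269 TPM in liver (SD, n = 5 each). The highest values thus lay in 2 sublingual libraries and in 1 submandibular library low in epithelial markers. GALNT4 was at 4.51, 0.177, 1.28, 0.830 and 6.64 TPM in sublingual gland, the tissue with its lowest and its highest library. Its other means were 1.36 ± 0.840 TPM in submandibular gland, 1.21 ± 0.989 TPM in parotid, 0.767 ± 0.235 TPM in pancreas and 0.575 ± 0.278 TPM in liver. GALNT4 overlaps POC1B in RefSeq's genes for the Panubis1.0 assembly, so reads of the pair may not have been separated and its values are uncertain. POC1B itself was at 3.10 ± 1.47 TPM in sublingual gland and 0.926 ± 0.362 TPM in pancreas. Neither GALNT7 (0.62 ± 0.50, limma adjusted p = 0.381) nor GALNT4 (0.73 ± 0.38, adjusted p = 0.189) passed the test for sublingual gland against pancreas.

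For core 1 formation, the level of C1GALT1 was 0.925 ± 0.219 TPM in pancreas and 1.36 ± 0.353 TPM in liver (SD, n = 5 each). Parotid libraries of baboons 1 to 5 had 0.569, 7.41, 2.76, 0.867 and 8.24 TPM, and in submandibular gland 1.02, 5.03, 0.659, 0.904 and 1.25 TPM. The high parotid and submandibular values were those of baboons 2 and 5 and of baboon 2. Sublingual gland had 7.31, 0.316, 3.47, 3.25 and 4.85 TPM, with the muscle-rich library of baboon 2 lowest. By mean the order was parotid, sublingual, submandibular, liver and pancreas, and every neighbouring pair overlapped. Against pancreas C1GALT1 differed by 1.11 ± 0.50 in sublingual gland (limma adjusted p = 0.136, 95% interval 0.08 to 2.15) and by 1.01 ± 0.50 in parotid (adjusted p = 0.278).

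The chaperone C1GALT1C1 had the higher level of the pair in every library except sublingual 1. It was at 2.41, 22.4, 4.72, 2.37 and 9.28 TPM in parotid and at 2.84, 18.8, 2.24, 2.64 and 6.33 TPM in submandibular gland. In sublingual gland it was at 7.16, 3.15, 7.26, 3.41 and 19.8 TPM. Pancreas was at 3.44 ± 0.936 TPM and liver at 5.89 ± 1.56 TPM (SD, n = 5 each). The order by mean was that of C1GALT1, again with every neighbouring pair overlapping. Against pancreas the chaperone differed by 0.81 ± 0.52 in sublingual gland (limma adjusted p = 0.273) and by 0.67 ± 0.52 in parotid (adjusted p = 0.454). The near copy C1GALT1C1L, at means of 0.716 to 1.97 TPM over the tissues, may have shared reads with it.

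The 2 core genes are also given by how much of a library its highest genes took. In 7 gland libraries the 10 highest genes took 57.9% to 87.7% of all TPM, and there C1GALT1 was at 0.569 to 2.76 TPM and C1GALT1C1 at 2.24 to 6.33 TPM. In the other 8, where they took 16.2% to 43.5%, C1GALT1 was at 0.316 to 8.24 TPM and C1GALT1C1 at 3.15 to 22.4 TPM. The ranges overlapped, and the lowest C1GALT1 value, in sublingual 2, was in the second set. TPM adds up to the same total in every library, so each gene's value depends on the rest, and the part this plays was not tested. The ratio of C1GALT1C1 to C1GALT1, which does not depend on the scale of the library, was 2.57 ± 1.21 in parotid, 3.58 ± 0.921 in submandibular gland, 3.64 ± 3.76 in sublingual gland, 3.73 ± 0.797 in pancreas and 4.37 ± 0.976 in liver (SD, n = 5 each). The ratio of GALNT12 to C1GALT1 was 11.1, 1.47, 6.52, 8.72 and 0.894 in parotid and 3.30 ± 1.07 in pancreas. Its 2 lowest parotid values were those of baboons 2 and 5.

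**Figure D4:**
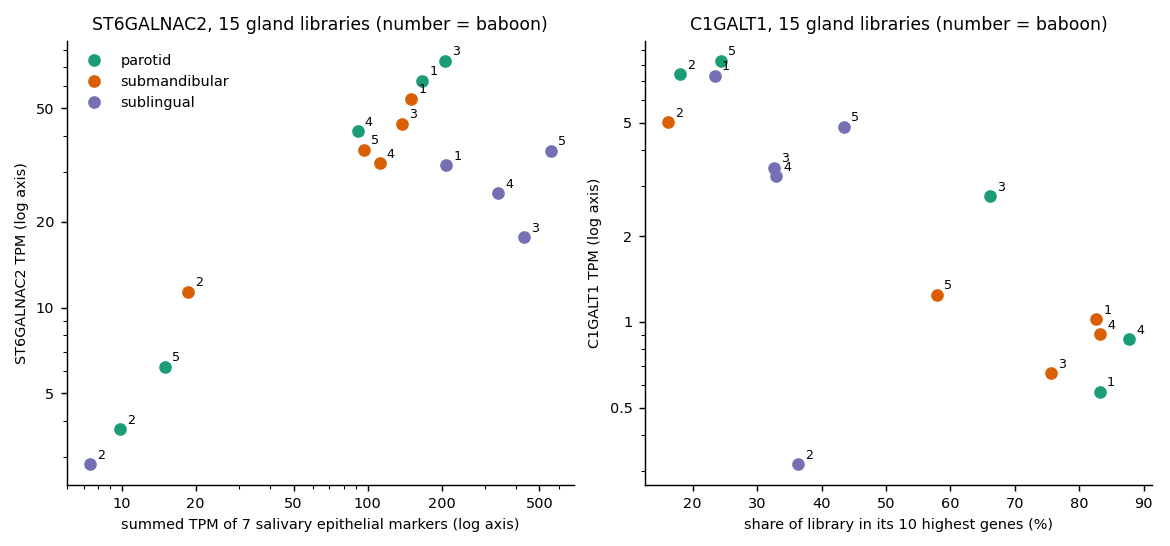
Left, ST6GALNAC2 TPM against the summed TPM of 7 salivary epithelial markers, both on log axes, and right, C1GALT1 TPM (log axis) against the percent of the library in its 10 highest genes, for the 15 gland libraries, coloured by gland and numbered by baboon. The 4 libraries with marker sums of 7.44 to 18.6 TPM hold 2.82 to 11.4 TPM of ST6GALNAC2, below the 17.6 to 73.4 TPM of the other 11, and C1GALT1 stays at 2.76 TPM or less where the 10 highest genes take 57.9% or more of the library.

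Of the 2 capping enzymes, ST6GALNAC1, which makes sialyl-Tn, was at 60.7, 0.832, 21.5, 36.6 and 32.3 TPM in submandibular gland. Sublingual gland had 43.5, 0.840, 3.82, 6.43 and 48.2 TPM. Parotid had 0.395, 0.671, 0.534, 0.206 and 1.21 TPM, and pancreas 0.0916, 1.10, 0.728, 0.375 and 0.988 TPM. Liver had 0.339, 0.683, 0.142, 0.288 and 1.90 TPM. The submandibular and sublingual values of baboon 2, from libraries low in epithelial markers, lay within the parotid range, and those of the other animals lay above it. That split by animal was read from these same values, and how many of all genes show it was not counted. By mean the order was submandibular, sublingual, liver, pancreas and parotid, and neighbours overlapped in each case. Only submandibular (30.4 TPM) and sublingual gland (20.6 TPM) had means above 1 TPM, so they alone brought the gene into the test.

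ST6GALNAC1 was higher than in pancreas by 3.63 ± 0.68 in submandibular gland (limma adjusted p = 0.00139), in 4 of 5 animals and under all 15 settings. In sublingual gland it was higher by 2.74 ± 0.68 (adjusted p = 0.0150), in 4 of 5 animals and under 8 of 15 settings. That call was lost without baboon 1, 4 or 5, with log2 fold changes of 2.09, 2.82 and 2.27. Parotid did not differ detectably from pancreas (-0.04 ± 0.68, 95% interval -1.45 to 1.38, adjusted p = 0.981). Over liver the mean of the glands was higher by 2.15 ± 0.56 (adjusted p = 0.00692), in 5 of 5 animals and under all 15 settings. Over pancreas it was higher by 2.11 ± 0.56 (adjusted p = 0.0211), in 4 of 5 animals and under 11 of 15.

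Between glands, submandibular exceeded parotid by 3.67 ± 0.68 in 5 of 5 animals, yet the adjusted p was 0.114 in the model of all 25 libraries. Sublingual exceeded parotid by 2.78 ± 0.68, also in 5 of 5 animals (limma adjusted p = 0.106). Without the 4 libraries low in epithelial markers both were called, at 4.50 (adjusted p = 0.00156, up to 0.988 over the settings) and 3.38 (adjusted p = 0.00158, up to 0.630). The set was chosen after seeing the data, and it holds the lowest submandibular and the lowest sublingual value of this gene. Submandibular against sublingual gland, with sublingual lower by 0.89 ± 0.68 and a 95% interval of the signed difference from -2.31 to 0.52, did not pass the test (adjusted p = 0.525).

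ST6GALNAC2, a second enzyme that sialylates core glycans and a known IgA1-modifying enzyme, was abundant in parotid libraries too. Its level in parotid was 62.5, 3.75, 73.4, 41.5 and 6.20 TPM and in submandibular gland 54.0, 11.4, 44.1, 32.1 and 35.8 TPM. Sublingual gland had 31.6, 2.82, 17.6, 25.1 and 35.5 TPM. Pancreas was at 7.10 ± 1.29 TPM and liver at 6.66 ± 1.54 TPM (SD, n = 5 each). The low gland values were those of the 4 libraries low in epithelial markers, at 2.82 to 11.4 TPM, against 17.6 to 73.4 TPM in the other 11 gland libraries. The submandibular range lay wholly above pancreas, whose highest library was 8.68 TPM, and the other 2 glands overlapped it.

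Against pancreas, ST6GALNAC2 was called in submandibular gland at 2.03 ± 0.55 (limma adjusted p = 0.0357), in 5 of 5 animals and under 7 of 15 settings. This call was lost without baboon 1, 3, 4 or 5 (1.87, 1.90, 2.04 and 1.89). Parotid differed by 1.54 ± 0.55 (adjusted p = 0.139) and sublingual gland by 1.21 ± 0.55 (adjusted p = 0.141), each higher in 4 of 5 animals. Without the 4 libraries all 3 glands were called, at 2.84 in parotid (adjusted p = 1.23e-05, up to 0.495 over the settings), 2.36 in submandibular gland (2.97e-05, up to 0.222) and 1.76 in sublingual gland (0.000414, up to 0.709). Those 4 hold the 4 lowest gland values of this gene and were chosen after seeing the data. Larger differences without them follow from that choice, so these p-values are a description only. Parotid then rests on baboons 1, 3 and 4. For the mean of the glands, ST6GALNAC2 was higher than liver by 1.68 ± 0.45 (adjusted p = 0.00863) and than pancreas by 1.59 ± 0.45 (adjusted p = 0.0321). The first held under 12 and the second under 6 of 15 settings. The animal block changed 2 calls of this gene. Without the block, submandibular gland against pancreas had an adjusted p of 0.112 and the glands against pancreas 0.0887.

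The pair lies side by side in the gene table, with 0 protein-coding genes between them, and the share of ST6GALNAC1 in their sum is given as a description. ST6GALNAC1 made up 52.9%, 6.81%, 32.8%, 53.3% and 47.5% of the pair's summed TPM in submandibular gland. In sublingual gland it made up 57.9%, 23.0%, 17.8%, 20.4% and 57.6%. Parotid had 0.628%, 15.2%, 0.722%, 0.494% and 16.3%, where the 2 higher shares were those of the libraries low in epithelial markers. Pancreas had 8.61% ± 5.75 and liver 8.89% ± 8.17 (SD, n = 5 each). This share, too, is free of library scaling.

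Genes outside the list whose log2(TPM + 1) followed each enzyme most closely were ranked by Pearson's r over the 25 libraries, as a description. The libraries share tissues and animals, so they are not independent points. For ST6GALNAC1 they were MUC19 (r = 0.942), which encodes a gel-forming mucin, CAPN9 (0.940), a calpain of the digestive tract, and MUC7 (0.920), which encodes a small salivary mucin. Over the 15 gland libraries alone, r with MUC7 was 0.927. MUC7 was at 9327, 283, 1967, 3145 and 2790 TPM in submandibular gland and at 106, 202, 141, 77.6 and 341 TPM in parotid. Sublingual gland had 2326, 133, 1014, 415 and 44550 TPM, so its order over the animals resembled that of ST6GALNAC1. MUC7 was also found at 63.0 to 281 TPM in pancreas and 59.8 to 485 TPM in liver, and the liver library with 485 TPM, that of baboon 5, had the highest liver value of ST6GALNAC1, 1.90 TPM.

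**Figure D5:**
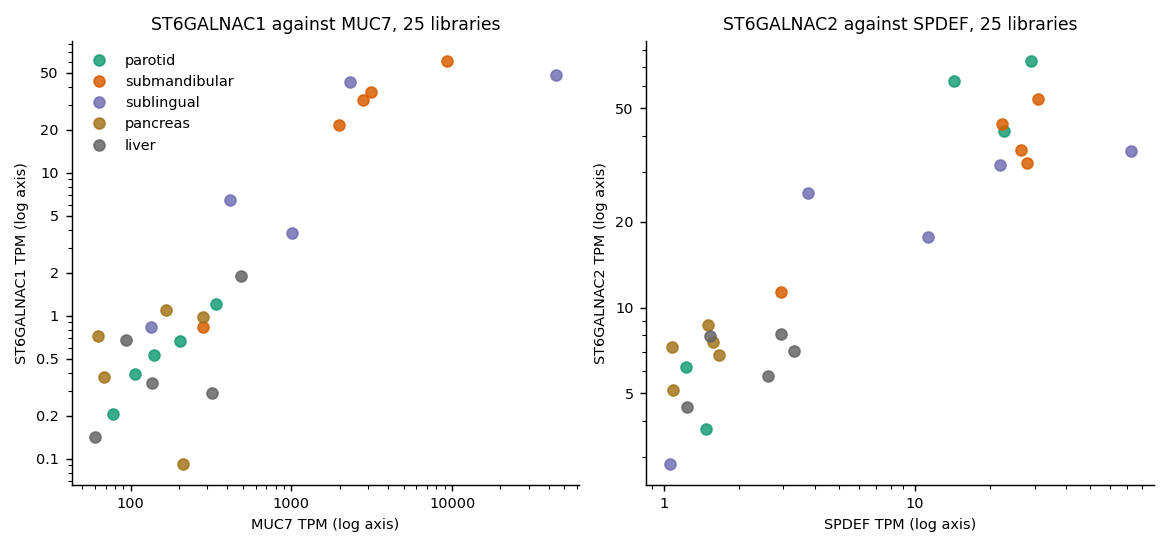
ST6GALNAC1 TPM against MUC7 TPM (left) and ST6GALNAC2 TPM against SPDEF TPM (right), all on log axes, with 1 point for each of 25 libraries coloured by tissue. Submandibular and sublingual libraries other than those of baboon 2 lie above all other libraries for ST6GALNAC1. By MUC7, sublingual 4 (415 TPM) lies to the left of liver 5 (485 TPM). The parotid libraries of baboons 1, 3 and 4 reach the level of those gland libraries only for ST6GALNAC2.

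ST6GALNAC2 was followed most closely by TESC (r = 0.925), SPDEF (0.908) and SOX10 (0.906). SPDEF is a transcription factor of secretory and mucous cells, and SOX10 is one of salivary acinar cells. In the 15 gland libraries r with SPDEF was 0.866. SPDEF was at 1.06 to 2.92 TPM in the 4 libraries low in epithelial markers and at 3.75 to 72.7 TPM in the other 11. GALNT12 was followed by CD44 (0.936), DOP1B (0.920) and CAMKK1 (0.917), and GALNT6 by C7H15orf56 (0.891), SLC44A3 (0.883) and BICDL2 (0.880). GALNT3 was followed by the epithelial splicing regulator ESRP1 (0.903), itself 1 of the 7 salivary epithelial markers, and by NECTIN4 and LTB4R2 (0.896 each). GALNT4 had STRBP (0.833), ERN2 (0.823) and SOSTDC1 (0.817), and GALNT7 had SPTY2D1 (0.904), RHNO1 (0.877) and MICALL1 (0.857).

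C1GALT1 was followed by ZNF510 (r = 0.963), CAPZA1 (0.957) and SS18 (0.954), and C1GALT1C1 by HEXA (0.968), MAGEH1 (0.957) and COPB1 (0.945). HEXA, a lysosomal enzyme, was at 61.1 and 53.0 TPM in the parotid and submandibular libraries of baboon 2, where C1GALT1C1 was at 22.4 and 18.8 TPM. In the parotid of baboon 4 HEXA stood at 4.49 TPM and C1GALT1C1 at 2.37 TPM. With each other, C1GALT1 and C1GALT1C1 had r = 0.797 over 25 and 0.812 over 15 gland libraries. With ST6GALNAC1 the 2 core genes had r = -0.05 and -0.07 over the 15 gland libraries. With ST6GALNAC2 those values were -0.35 and -0.46.

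Other genes of the relay were read from lists given by role. Of 9 other GALNT genes tested, sublingual gland had 3 higher than pancreas and 0 lower. These were GALNT1 (1.78 ± 0.53, limma adjusted p = 0.0388), GALNT18 (1.70 ± 0.46, adjusted p = 0.0235) and GALNT14 (1.44 ± 0.35, adjusted p = 0.0115). Limma called 0 of them in submandibular gland or parotid against pancreas, in pancreas against liver, or between glands. For the mean of the glands, 1 was higher than in pancreas (GALNT18, 1.54 ± 0.37, adjusted p = 0.0117), and 2 were higher than in liver. Those were GALNT16 (1.39 ± 0.45) and GALNT17 (1.01 ± 0.32). Without the 4 libraries low in epithelial markers they stood at 1.02 and 0.67, the second under the minimum fold change. Over all genes, 6.97% were called higher in sublingual gland than in pancreas, and for the glands' mean 3.28% against pancreas and 5% against liver. Under the 15 other settings the sublingual calls held in 9 (GALNT1), 11 (GALNT18) and 11 (GALNT14), that of GALNT18 for the glands' mean in 14, and those against liver in 10 (GALNT16) and 6 (GALNT17). The median of the 9 for sublingual gland against pancreas was 1.18, beside 0.63 over all genes tested. GALNT1, a widely expressed initiator, was at 9.95, 7.68, 19.9, 11.3 and 11.2 TPM in sublingual gland and at 2.71 ± 0.811 TPM in pancreas (SD, n = 5), so the ranges did not overlap.

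Of 19 core, extension and capping enzymes tested, sublingual gland had 3 higher and 2 lower than pancreas, with a median of 0.83 beside 0.63 over all genes, of which 6.97% were called higher and 2.49% lower. B4GALT1 (2.21 ± 0.70) and B4GALT5 (1.95 ± 0.59), which add galactose to extend chains, and the sulfotransferase GAL3ST4 (1.33 ± 0.38) were higher. ST6GALNAC4 (-2.25 ± 0.57, limma adjusted p = 0.0175), which sialylates core 1 chains that already carry a sialic acid, and the branching enzyme GCNT4 (-1.09 ± 0.22) were lower. In submandibular gland 1 was higher, ST3GAL1 (1.66 ± 0.43), and the same 2 were lower, ST6GALNAC4 at -2.0 ± 0.57 and GCNT4 at -1.17 ± 0.22. Over all genes 1.27% were called higher there and 2.81% lower. In parotid 2 were higher, B4GALNT3 (2.01 ± 0.51, limma adjusted p = 0.0225) and ST3GAL1 (1.51 ± 0.43, adjusted p = 0.0475), and 0 were lower. The shares of all genes called in parotid were 1.41% higher and 2.4% lower. The parotid call of ST3GAL1 held under 5 of 15 settings, and was lost with TMM scaling, a trimmed mean of log ratios between libraries (adjusted p = 0.140), and without the 4 libraries low in epithelial markers (0.0573). The sublingual calls held under 9 settings for B4GALT1 and B4GALT5, 10 for GAL3ST4, 11 for ST6GALNAC4 and 13 for GCNT4. The submandibular calls held under 12 for ST3GAL1, 9 for ST6GALNAC4 and 15 for GCNT4, and the parotid call of B4GALNT3 under 12. Against liver, pancreas had 2 higher, ST6GALNAC4 (3.21 ± 0.57) and GCNT4 (1.15 ± 0.22), and 3 lower, ST6GAL1, ST3GAL4 and B3GNT7, with 2.86% of all genes called higher and 14.6% lower. Of these the ST3GAL4 call held under 8 of 15 settings and the other 4 under 14 or 15. The glands' mean had 2 higher and 2 lower than pancreas (3.28% and 3.16% of all genes), and 3 higher and 3 lower than liver (5% and 13.2%). Between glands 0 were called.

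ST6GALNAC4 had its highest mean in pancreas. It was at 41.5, 16.2, 46.3, 54.2 and 18.5 TPM in pancreas and at 2.55 ± 0.324 TPM in liver (SD, n = 5). Parotid had 2.52, 16.8, 5.71, 2.13 and 53.1 TPM, where the highest value was that of the lymphocyte-rich library of baboon 5. The submandibular mean was 8.02 ± 4.73 TPM and the sublingual mean 6.85 ± 4.06 TPM. GCNT4 was at 0.364 to 2.18 TPM in pancreas and did not exceed 0.703 TPM in any gland library. No gland therefore brought it over the 1 TPM minimum for testing, and its gland values lie near the floor.

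Of 10 genes that supply sugar nucleotides, sublingual gland had 1 higher than pancreas, the transporter SLC35A3 (1.72 ± 0.47, limma adjusted p = 0.0247), and 0 lower, and the other 2 glands had 0 in either direction. For sublingual gland against pancreas, 6.97% of all genes were called higher and 2.49% lower. Pancreas had 3 lower than liver, SLC35A3 (-1.99 ± 0.47), CMAS (-1.63 ± 0.50) and GNE (-1.38 ± 0.47), the last 2 being steps of sialic acid activation and synthesis. Over all genes 14.6% were called lower in pancreas than in liver, and the list's median was -0.78 beside -0.44 over all genes. The GNE call held under 9 of 15 settings and was lost with TMM (-0.85, limma adjusted p = 0.105), that of CMAS held under 11 and that of SLC35A3 under 15. The sublingual call of SLC35A3 held under 9. GMDS, the first enzyme of GDP-fucose synthesis, was higher in the glands' mean than in liver (2.18 ± 0.40, limma adjusted p = 0.000219), under all 15 settings. In that comparison 5% of all genes were called higher. Between glands 0 were called.

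Mucins are the proteins that carry the glycans. Of 8 mucin genes tested, sublingual gland exceeded pancreas in 3, MUC7 (3.40 ± 0.86), MUC15 (2.97 ± 0.55) and MUC20 (2.89 ± 0.67), and 1 was lower, MUC1 (-3.02 ± 0.59, limma adjusted p = 0.00202). The list's median there was 2.38 beside 0.63 over all genes, of which 6.97% were called higher and 2.49% lower. The sublingual call of MUC7 held under 9 of 15 settings and was lost with TMM (2.60, adjusted p = 0.0753). Those of MUC20, MUC15 and MUC1 held under 11, 15 and 15. In submandibular gland MUC7 (3.99 ± 0.86) and MUC19 (3.27 ± 0.69) were higher and MUC1 was lower (-4.72 ± 0.59), with 1.27% of all genes called higher and 2.81% lower. Those calls held under 12, 14 and 15 of 15 settings. In parotid 0 were higher and MUC1 was lower (-4.81 ± 0.59), with 1.41% of all genes called higher and 2.4% lower. For the glands' mean, 1 was higher and 1 lower than in pancreas (3.28% and 3.16% of all genes), and 4 were higher and 0 lower than in liver (5% and 13.2%). Between glands 0 were called. Pancreas exceeded liver in 1, MUC1 (4.85 ± 0.59, adjusted p = 8.04e-07), where 2.86% of all genes were called higher. The transmembrane mucin MUC1 was at 29.0, 80.1, 72.7, 39.0 and 74.5 TPM in pancreas, the tissue led by GALNT6, and at 2.96 TPM or less in every parotid and submandibular library. MUC19 was at 59.8, 2.56, 12.8, 27.6 and 24.5 TPM in submandibular gland. Its sublingual values were 20.6, 0.853, 0.870, 1.34 and 95.6 TPM, and no parotid library exceeded 1.34 TPM. Only submandibular and sublingual gland had a MUC19 mean above the 1 TPM minimum for testing. MUC5B, a gel-forming salivary mucin in people that is named here because of its values, was at 86.7 TPM in the sublingual library of baboon 1 and at 0.947 TPM or less in the other 4 sublingual libraries.

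Of 7 regulators and secretory partners of mucous cells tested, sublingual gland had 2 higher than pancreas, SPDEF (2.28 ± 0.70, limma adjusted p = 0.0415) and the forkhead factor FOXA1 (1.39 ± 0.40, adjusted p = 0.0339), and 1 lower, FOXA3 (-2.47 ± 0.34). Over all genes 6.97% were called higher and 2.49% lower, and the list's median was -0.30 beside 0.63. The SPDEF call held under 5 of 15 settings and the FOXA1 call under 7, and both were lost with TMM (1.65, adjusted p = 0.201, and 0.91, adjusted p = 0.107). The FOXA3 call held under 15. Submandibular gland had SPDEF higher (2.99 ± 0.70, limma adjusted p = 0.0108) and the trefoil peptide TFF3 (-3.04 ± 0.68) and FOXA3 (-2.83 ± 0.34) lower. Those calls held under 12, 14 and 15 settings, with 1.27% of all genes called higher and 2.81% lower. Parotid had 0 higher and the same 2 lower, at -3.31 ± 0.68 and -2.96 ± 0.34, both under 15 settings. The shares of all genes called in parotid were 1.41% higher and 2.4% lower. Against liver, pancreas had CREB3L1 higher (1.59 ± 0.50) and FOXA1 lower (-3.44 ± 0.40), with 2.86% of all genes called higher and 14.6% lower. For the glands' mean, 1 was higher and 2 lower than in pancreas (3.28% and 3.16% of all genes), and 2 were higher and 3 lower than in liver (5% and 13.2%). Between glands 0 were called. Of the 45 fold changes computed for genes of these 5 lists under 15 other settings, 0 reversed, and 137 of 675 values fell short of the call. All 45 were picked because they were called in the 25 libraries. Few reversals were thus to be foreseen, and the 0 is no measure of how stable the lists are.

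Leaving out the 4 libraries low in epithelial markers, a set chosen after seeing the data, changed the counts of the sublingual gland. Against pancreas 7 of the 9 enzymes were then called higher and 0 lower, with 34.1% of all genes called. The 7 were ST6GALNAC1 (3.44), GALNT12 (2.56), ST6GALNAC2 (1.76), C1GALT1 (1.56), GALNT3 (1.13), C1GALT1C1 (1.07) and GALNT4 (1.02). Against parotid 5 were called, with 34.9% of all genes: ST6GALNAC1 (3.38), GALNT6 (1.78), C1GALT1 (1.32) and GALNT7 (1.19) were higher and ST6GALNAC2 (-1.08) was lower. Against submandibular gland 5 were called higher, GALNT6 (1.61), C1GALT1 (1.50), GALNT7 (1.09), C1GALT1C1 (1.05) and GALNT3 (1.01), again with 34.9% of all genes. These shares count both directions. The median over all genes was then 0.73 against pancreas, 0.86 against parotid and 0.82 against submandibular gland. The enzymes' medians were 1.13, 1.11 and 1.01, in the same direction, while ST6GALNAC2 against parotid went the other way. How far the sublingual differences were shared with genes at large was not tested. Submandibular against parotid gave 1, ST6GALNAC1 (4.50), where 14 genes in all (0.0975%) were called. The sublingual counts move with the scaling of the libraries. Over all genes, the median difference of sublingual gland from pancreas was 0.63 in the 25 libraries and 0.10 after TMM scaling. With TMM, 1 enzyme was called for sublingual gland against pancreas, GALNT6 (-2.17), and 38.4% of all calls were higher in sublingual gland, against 73.6% without scaling. The share of calls that were higher moved from 50.9% to 36.5% for the glands against pancreas, from 27.5% to 38.3% for the glands against liver, from 16.3% to 38.8% for pancreas against liver and from 82.4% to 50.9% for sublingual against parotid. For sublingual gland against pancreas with TMM, ST6GALNAC1 stood at 2.18 (limma adjusted p = 0.0608) and GALNT12 at 1.15 (adjusted p = 0.117).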

How the data were processed

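The series holds bulk RNA-seq of 25 libraries, 5 tissues from each of 5 baboons. Per the labels' protocols, RNA from thin frozen sections was DNase-treated, and mRNA libraries were read from both ends. The deposited values are TPM per gene from kallisto, one of the tools in the submitters' processing notes. Its version, index, build and annotation are not given in the sources used here. Each library summed to 999999.5 to 1000000.6 TPM, so depth is unknown and precision rests on the spread over 5 animals. All 21287 identifiers matched symbols in the RefSeq table of Panubis1.0, which was used for names and neighbours only.

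Log2(TPM + 1), which understates changes of low genes, entered a linear model of tissue plus animal over the 25 libraries (limma 3.58.1, R 4.3.3, eBayes trend). The 14991 genes that averaged 1 TPM or more in some tissue were tested, and p-values were adjusted by Benjamini-Hochberg within each of 9 comparisons. The model was tested on simulated data. Tables and figures were made with Python 3.11.15, pandas 2.3.3, numpy 2.4.6 and matplotlib 3.10.9.

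The labels give the same baboon number to tissues of one animal, and the series' design is within-subject, so the animal was a block. Deviations from tissue means had a mean correlation of 0.161 over 50 pairs of libraries from the same animal and of -0.04 over 200 pairs from different animals. The deviations of a tissue cancel over its animals, so the second value largely follows from the first.

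The enzymes, marker lists and pathway lists were chosen with earlier results of these data known. All listed enzymes were named, with the 3 genes most like each by Pearson's r, and the called genes of each pathway list, at most 4 in each direction. Alternatives were no block, only the tissues compared, TMM or median-of-ratios scaling (both computed on TPM), a pseudocount of 0.1, no filter, no minimum fold change, each animal left out and sets of libraries left out. Leaving out the 4 gland libraries low in epithelial markers was chosen after seeing the data. Rhesus macaque libraries and GCNT3 were not analysed here, nor were GALNT9, FUT1, FUT3, MUC6, AGR2 and KRT6A of the other lists.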

Additional observations from a re-analysis of the deposited data

Results flagged for a closer look

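Of the 45 groups of 5 libraries (9 enzymes in 5 tissues), 7 held a library set apart from the other 4, with a gap to its neighbour of more than 0.71 of the group's range. About 1 in 20 groups of 5 independent, normally distributed values would pass that cut-off. Raw TPM was used and the groups share libraries, so that rate need not hold here and no excess over it was tested. GALNT3 in the sublingual library of baboon 1 stood at 14.9 TPM. The submandibular library of baboon 2 stood apart for GALNT7 at 8.78 TPM, for C1GALT1 at 5.03 TPM and for C1GALT1C1 at 18.8 TPM. C1GALT1C1 was at 19.8 TPM in the sublingual library of baboon 5, the highest of its tissue, and at 3.25 TPM in the liver of baboon 5, the lowest of its tissue. GALNT12 was at 1.36 TPM in the pancreas of baboon 5, below the other 4 pancreas libraries.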

How the results depend on the processing

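Without the replicate block, 2 enzymes were called for sublingual and 2 for submandibular gland against pancreas and 3 for the glands' mean against pancreas, in place of 3, 3 and 4; no other count of enzymes changed. For sublingual gland against pancreas, the count was 0 with only the tissues compared and without sublingual 1 and 4, and 1 with TMM scaling, with median-of-ratios scaling and with no filter. It was 6 without parotid 2 and 5, submandibular 5 and sublingual 2, 7 without parotid 2 and 5, submandibular 2 and sublingual 2 (the 4 low libraries), and 0 to 4 with 1 animal left out. Without either set of 4 libraries, parotid against pancreas gave 2 in place of 1; sublingual against parotid gave 3 and 5, and sublingual against submandibular 2 and 5, in place of 0. Without the 4 low libraries submandibular against parotid gave 1 in place of 0. The glands against pancreas gave 2 with only the tissues compared and 2 without sublingual 1 and 4, in place of 4. Pancreas against liver gave 2 with TMM and 3 with median-of-ratios scaling, in place of 1. With 1 animal left out the counts ran from 1 to 2 for parotid against pancreas, 1 to 4 and 2 to 5 for the glands against pancreas and liver, 0 to 2 for sublingual against parotid and against submandibular, and 0 to 1 for submandibular against parotid. Submandibular gland against pancreas stayed within 2 to 4.

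Over all genes, the count for sublingual gland against pancreas (1419) was 393 to 3011 with 1 animal left out, 5173 and 4899 without the sets of 4 libraries and 579 without sublingual 1 and 4. For submandibular gland (611) it was 1275 with TMM, 1283 with median-of-ratios scaling, 326 to 682 with 1 animal left out and 1119 without the 4 low libraries. For parotid (572) these were 1223, 1226, 315 to 624 and 933. For the glands against pancreas (966) they were 1479, 1481 and 457 to 1016, and 1499 with a pseudocount of 0.1. Pancreas against liver (2623) had 4313 with only the tissues compared, 1722 to 2678 with 1 animal left out and 3955 without the 4 low libraries. Sublingual against parotid (17) had 0 with only the tissues compared, 53 with either scaling, 0 to 404 with 1 animal left out, 3119 and 5014 without the sets of 4 and 4 without sublingual 1 and 4. Sublingual against submandibular (10) had 0, 1 with TMM, 0 with median-of-ratios scaling, 2 with no filter, 0 to 2627, 1761 and 5010, and 4. Submandibular against parotid (0) had 1 with either scaling, 0 to 11 with 1 animal left out, and 6 and 14 without the sets of 4.

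Of 658 values of 44 fold changes of the enzymes, 16 changed sign, and the cause was not tested. ST6GALNAC1 in parotid against pancreas (-0.04) was 0.0573 without the 4 low libraries, and with 1 animal left out it ran from -0.134 to 0.0362, above 0 without baboon 2 or 4. In pancreas against liver (0.03) ST6GALNAC1 ran from -0.107 to 0.179, below 0 without baboon 2 or 3. ST6GALNAC2 in sublingual against parotid (-0.33) ran from -0.994 to 0.0907, above 0 without baboon 3. GALNT7 in sublingual against submandibular (0.35) was -0.10 with TMM, -0.0760 with median-of-ratios scaling and -0.12 without sublingual 1 and 4, and ran from -0.0717 to 1.09, below 0 without baboon 5. C1GALT1C1 in the same comparison (0.39) was -0.10 with TMM and -0.0744 with median-of-ratios scaling. C1GALT1 in sublingual against parotid (0.10) was -0.0389 with TMM and -0.46 without sublingual 1 and 4, and ran from -0.474 to 0.796, below 0 without baboon 1 or 4. Of the others, 536 kept direction and side of the threshold, 58 fell short of the call and 48 newly passed it.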
